A study of Mus musculus with 4 samples.

Results

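Mouse tumors grown from cells labelled as expressing chemerin or as wild type were compared. In total, 10 immune checkpoint genes were followed in them: Cd274, Pdcd1lg2, Cd80, Cd86, Cd276, Havcr2, Lgals9, Cd47, Sirpa and Nt5e. They were chosen by name, with earlier results of these data known, as ligands, receptors and an enzyme through which cells restrain T cells, NK cells or phagocytes. All 10 had an entry among the 47729 genes of the expression table. The table gives RPM, read counts scaled to the sequencing depth of each library, and a mean of at least 1 RPM over the pools was required for testing, which 13694 genes of the table and 9 of the 10 checkpoint genes reached. Pdcd1lg2 did not reach it.

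The tumors grew from LLC cells, a Lewis lung carcinoma line of the mouse, grafted under the skin of the back of syngeneic C57BL/6 mice and taken at day 5. In the LLC-Chem group the grafted cells carried pEFIN plasmids for bioactive murine chemerin, labelled 1-157, a secreted protein that attracts leukocytes through the receptor CMKLR1. In the LLC group the labels call the cells wild type, while the study also describes transfection with an empty vector. Each group held 2 RNA samples, and each sample was a pool of 3 tumors. The transfected lines were selected as individual clones, so a difference between clones and an effect of chemerin cannot be told apart here. Nothing in the labels ties equally numbered pools to one experiment, and p-values measure the spread between these pools.

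The fitted library totals ran from 28470000 to 33990000 reads. Rarres2, which encodes chemerin, measured 102.2 and 98.2 RPM across LLC pools, compared with 105.9 and 105.8 RPM across LLC-Chem pools, so its level barely differed between the groups and did not check the labels. The groups are therefore named as labelled, and every direction given is between these labels. Of the carcinoma markers, Krt8 measured 167.1 and 152.4 RPM across LLC pools, compared with 121.7 and 82.8 RPM across LLC-Chem pools. Krt18 measured 110.0 to 138.8 RPM over the 4 pools, whereas Epcam lay at or below 0.2 RPM and was absent from LLC-Chem pool 2. The median log2 fold change of all tested genes was −0.04.

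Checkpoint proteins act in pairs. PD-L1 and PD-L2 bind PD-1 on activated T cells and dampen their signaling, while CD80 and CD86 on antigen-presenting cells feed either the activating receptor CD28 or the inhibitory receptor CTLA-4. TIM-3 is an inhibitory receptor of T cells and myeloid cells that can be engaged by galectin-9, CD47 on a target cell tells SIRP alpha on a phagocyte not to engulf it, and CD73 converts AMP into the immunosuppressive nucleoside adenosine. In tumors several of these genes are carried both by the malignant cells and by infiltrating macrophages and dendritic cells.

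In LLC-Chem tumors 6 of the 9 genes tested were called lower by limma with a Benjamini-Hochberg adjusted p under 0.05: Havcr2, Nt5e, Sirpa, Cd274, Cd80 and Lgals9. No checkpoint gene was called higher. Cd86, Cd276 and Cd47 did not pass the test. Among all genes tested 13.5% were called lower and 9.54% higher. The median log2 fold change of the 9 genes was −1.16, against −0.04 over all genes. In 9 of the 10 genes both LLC-Chem pools lay below both LLC pools, 8 of them among the 9 tested, and 39.1% of all genes tested had that order. With RPM divided by TMM or median-of-ratios factors it was 8 of the 10, without Cd47. In RNA from whole tumors, fewer cells of a type and less RNA per cell cannot be told apart.

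**Figure D1:**
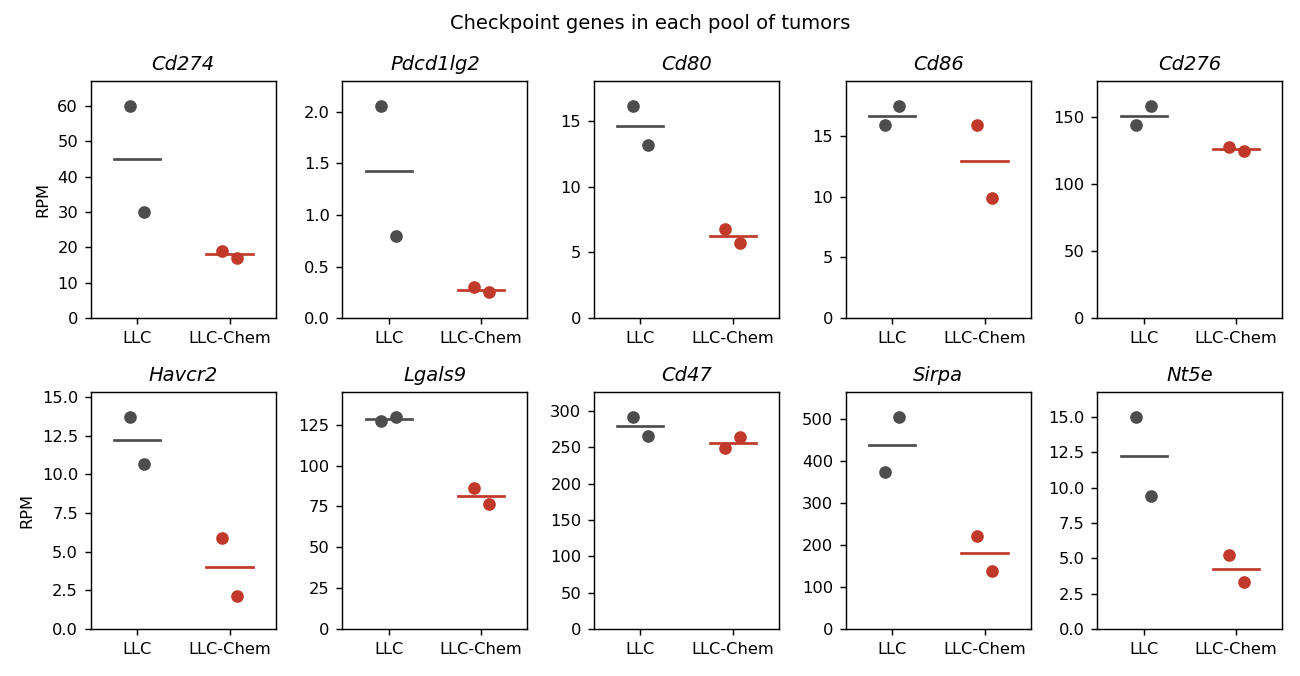
Level of each checkpoint gene (RPM, linear axes from 0, one panel per gene) in the LLC and LLC-Chem pools. Points are single pools of 3 tumors and bars the mean of each group: Cd86 is the gene whose groups touch, and Cd47 has the smallest distance between the group means relative to its level (92.0% of LLC).

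**Figure D2:**
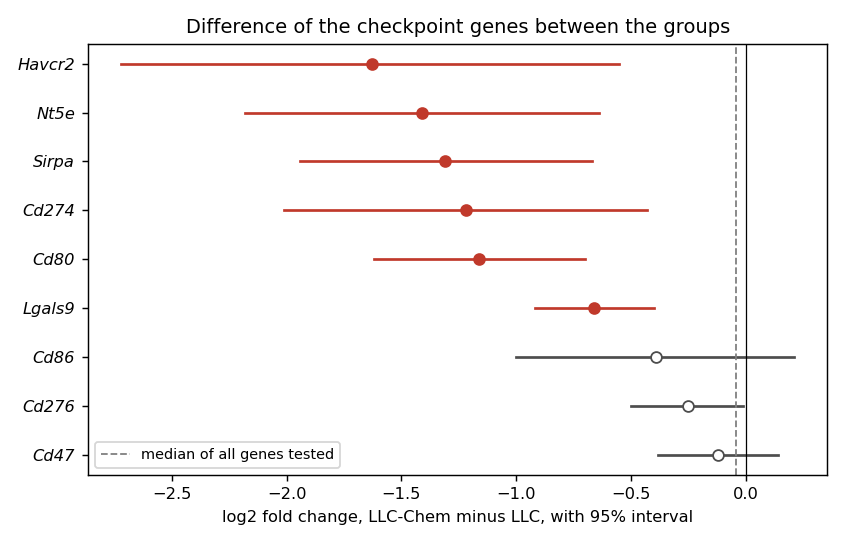
Log2 fold change (LLC-Chem minus LLC, on log2(RPM + 0.5)) of the 9 tested genes with the 95% interval from limma, where filled red points were called lower and open points were not called. The called changes run from −1.63 (Havcr2) to −0.66 (Lgals9), and the dashed line marks the median of all genes at −0.04.

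The ligands of PD-1 lie next to each other on chromosome 19. Cd274 (chr19:29367455-29388095, plus strand, GRCm38) encodes PD-L1. It measured 59.8 and 30.1 RPM across LLC pools, whereas 18.9 and 17.1 RPM were found across LLC-Chem pools. Both LLC-Chem pools lay below both LLC pools, and the LLC pools lay further apart (45.0 ± 21 RPM, SD, n = 2) than the LLC-Chem pools (18.0 ± 1.27 RPM). The log2 fold change was −1.22 (SE 0.32, adjusted p = 0.0463 by limma), leaving 40.0% of the LLC level. LLC pool 1 carried much of this size: the log2 fold change was −0.73 without that pool and −1.71 without LLC pool 2. The call was lost when the variance was not allowed to follow the mean level (adjusted p = 0.0735 by limma). An antisense transcript, AC119228.1, overlaps 14.1% of the exon bases of Cd274, and with no strand setting given for the counting, reads of the pair cannot be told apart there.

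Pdcd1lg2 (chr19:29410919-29471161, plus strand) encodes PD-L2. It was the scarcest of the 10 genes, at 2.05 and 0.8 RPM across LLC pools, compared with 0.3 and 0.25 RPM across LLC-Chem pools, which correspond to 63, 22, 10 and 8 reads. The groups did not overlap and the LLC-Chem mean was 19.3% of the LLC mean. At a limit of 0.5 RPM, added after the data were seen and calling 12.3% of 15028 genes lower, it entered the test through the LLC group alone and was not called, so no fitted change is given. The ratio of Cd274 to Pdcd1lg2 in RPM was 29.2 and 37.7 in the LLC pools and 63.0 and 68.4 in the LLC-Chem pools. With 10 and 8 reads of Pdcd1lg2 in the LLC-Chem pools, counting error weighs on this ratio, and no direction is drawn from it. An exact two-sided permutation test of this ratio gave p = 0.33, the smallest that 2 pools against 2 allow.

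The receptor of both ligands was barely detected. Pdcd1, encoding PD-1, measured 0.85 and 0.45 RPM across LLC pools, compared with 0.55 and 0.25 RPM across LLC-Chem pools, and these groups overlapped. Ifng, the cytokine that induces PD-L1, measured 0.5 and 0.15 RPM across LLC pools and 0.05 RPM in each LLC-Chem pool, under the limit of the test. Of 15 genes listed as regulators of PD-L1, 14 were tested, of which 1 was called lower, 1 higher and 12 not called, with a median log2 fold change of −0.04 equal to that of all genes. Ifngr2, a chain of the interferon gamma receptor, measured 94.6 and 93.1 RPM against 64.1 and 62.7 RPM (log2 fold change −0.56, adjusted p = 0.0187 by limma). Cmtm4, whose product protects PD-L1 protein from degradation, measured 40.0 and 35.2 RPM against 57.7 and 51.2 RPM and was called higher (log2 fold change 0.53, adjusted p = 0.0377 by limma).

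CD80 and CD86 are the classical B7 ligands. Their genes lie on chromosome 16 at chr16:38455561-38496335 (Cd80, plus strand) and chr16:36603869-36666081 (Cd86, minus strand). Cd80 measured 16.1 and 13.2 RPM across LLC pools, compared with 6.8 and 5.75 RPM across LLC-Chem pools. The groups were well apart and each was tight (14.7 ± 2.01 and 6.27 ± 0.742 RPM, SD, n = 2). Cd80 thus had a log2 fold change of −1.16 (SE 0.19, adjusted p = 0.0179 by limma), or 42.8% of the LLC level.

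Cd86 behaved otherwise. It measured 15.9 and 17.4 RPM across LLC pools, compared with 15.9 and 9.89 RPM across LLC-Chem pools. LLC-Chem pool 1 tied with LLC pool 1, and LLC-Chem pool 2 alone lay below both LLC pools. For Cd86 the log2 fold change was −0.39 (SE 0.24, 95% interval −1.0 to 0.21, adjusted p = 0.267 by limma). It was −0.06 without LLC-Chem pool 2 and −0.72 without LLC-Chem pool 1. The ratio of Cd80 to Cd86 was 1.01 and 0.761 in the LLC pools and 0.426 and 0.581 in the LLC-Chem pools, a log2 difference of −0.82 without overlap (exact two-sided permutation p = 0.33, the smallest possible). Their activating receptor Cd28 measured 3.0 and 4.05 RPM against 0.7 and 0.6 RPM, so that it reached the limit of the test through the LLC group alone and no test is given. Ctla4, the inhibitory receptor of the same ligands, stayed under the limit at 0.8, 0.15, 0.45 and 0.0999 RPM in the order LLC pools, then LLC-Chem pools.

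The promoter of Cd80 is shown because this gene was called lower and its partner Cd86 was not, which is no test of a difference between them. RefSeq promoter windows of GRCm38.p6, each 250 bases before to 50 bases after a transcription start, matched 8 of the 10 genes, with no window for Cd86 or Sirpa. They were searched on both strands for the hypoxia response element core ACGTG, the interferon-stimulated response element (GAAA, any 2 bases, GAAA), the gamma-activated site TTCNNNGAA and the NF-kappa-B site (GGGA, any 4 bases, CC). These were held by 19.7%, 3.45%, 8.33% and 20.8% of all 32544 windows. In the sequence of Cd80 before its RefSeq start (chr16:38458683-38458932, plus strand, read 5′ to 3′), the capitals mark an NF-kappa-B match beginning at base −210.
Cd80 promoter: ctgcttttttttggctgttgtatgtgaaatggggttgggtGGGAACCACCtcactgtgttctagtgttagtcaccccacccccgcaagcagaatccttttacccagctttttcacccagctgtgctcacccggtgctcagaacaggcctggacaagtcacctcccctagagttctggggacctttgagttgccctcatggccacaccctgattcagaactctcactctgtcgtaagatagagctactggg
The other 3 motifs had no match in this window, which says only that these letters are not in it. The window held 3 CpG dinucleotides, against a median of 7 over all windows. Matches to the NF-kappa-B letters also stood in the windows of Pdcd1lg2 at base −244 and of Nt5e at base −33, and Cd274 held the hypoxia core at base 39 after its start. Cd276 had none of the 4 motifs. The GC box GGGCGG, held by 35.9% of all windows, occurred in those of Cd47, Cd276, Nt5e and Cd274 and in none of the windows of Cd80, Havcr2, Lgals9 and Pdcd1lg2.

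B7-H3 is a B7 family protein found on many tumor cells, and its receptor on T cells is not settled. Cd276, its gene (chr9:58524298-58555437, minus strand), measured 143.8 and 157.6 RPM across LLC pools, compared with 127.7 and 124.8 RPM across LLC-Chem pools. The groups did not overlap, with means of 150.7 ± 9.75 and 126.3 ± 2.01 RPM (SD, n = 2). The log2 fold change of −0.25 (SE 0.1, 95% interval −0.5 to −0.01) did not pass the correction (adjusted p = 0.114 by limma). The gene Gm10657 on the opposite strand overlaps 11.4% of the exon bases of Cd276, and the reads of the pair cannot be told apart there.

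TIM-3 and galectin-9 form the next pair, with both genes on chromosome 11. Havcr2 (chr11:46454935-46481255, plus strand), encoding TIM-3, measured 13.7 and 10.7 RPM across LLC pools, compared with 5.9 and 2.1 RPM across LLC-Chem pools. Both LLC-Chem pools lay below both LLC pools, with a log2 fold change of −1.63 (SE 0.44, 95% interval −2.72 to −0.55) and 32.7% of the LLC level left. The adjusted p of 0.0484 by limma was near the threshold, and the call was lost under 12 of the 16 alternatives, with adjusted p from 0.00659 to 0.209 by limma, edgeR or DESeq2. LLC-Chem pool 2 was the lowest, and the log2 fold change was −0.98 without it and −2.28 without LLC-Chem pool 1. Of the TIM-3 ligands other than galectin-9, Ceacam1 measured 5.45 and 15.9 RPM against 14.0 and 7.55 RPM, with overlapping groups, and Hmgb1 had a log2 fold change of −0.27 that was not called (adjusted p = 0.136 by limma).

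Lgals9 (chr11:78962974-78984946, minus strand), encoding galectin-9, measured 127.4 and 129.7 RPM across LLC pools, compared with 86.6 and 76.3 RPM across LLC-Chem pools. The LLC pools nearly coincided and the groups were clearly separated. Lgals9 had a log2 fold change of −0.66 (SE 0.11, 95% interval −0.92 to −0.4, adjusted p = 0.0179 by limma), the smallest of the 6 called changes, with 63.3% of the LLC level left. The ratio of Havcr2 to Lgals9 was 0.108 and 0.0828 in the LLC pools and 0.0681 and 0.0275 in the LLC-Chem pools (log2 difference −1.13, exact two-sided permutation p = 0.33, the smallest possible).

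The promoters of this pair are shown because receptor and ligand fell together and because interferon and hypoxia motifs occur in them. Capitals mark the hypoxia core at base −100 of Havcr2 (chr11:46454681-46454930, plus strand), and in Lgals9 (chr11:78984947-78985174, minus strand, bases −250 to −23) an NF-kappa-B match at base −129 and an interferon-stimulated response element at base −55 on the opposite strand.
Havcr2 promoter: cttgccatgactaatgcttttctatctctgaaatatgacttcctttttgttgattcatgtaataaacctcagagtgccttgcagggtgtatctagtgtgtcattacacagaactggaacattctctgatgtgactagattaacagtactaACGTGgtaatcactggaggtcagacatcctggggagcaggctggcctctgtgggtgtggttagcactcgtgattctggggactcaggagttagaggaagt
Lgals9 promoter: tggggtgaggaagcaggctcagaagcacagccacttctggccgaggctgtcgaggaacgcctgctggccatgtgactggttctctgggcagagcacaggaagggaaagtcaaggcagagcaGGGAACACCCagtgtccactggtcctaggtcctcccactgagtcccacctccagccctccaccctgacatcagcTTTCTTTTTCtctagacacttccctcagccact
A second interferon-stimulated response element of Lgals9 began at base 15 after the start. Lgals9 was the only one of the 8 genes with this motif in its window, which 3.45% of all windows held. With 3 and 4 CpG dinucleotides, Havcr2 and Lgals9 also lay below the median of all windows. These matches are letters in the sequence, and no binding was measured.

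CD47 and SIRP alpha form the pair that controls engulfment by phagocytes. Cd47 (chr16:49800533-49915010, plus strand) measured 291.8 and 266.3 RPM across LLC pools, compared with 249.3 and 264.3 RPM across LLC-Chem pools. The LLC-Chem pools lay just below the LLC pools, with 264.3 against 266.3 RPM for the nearest pair. This order was lost with either scaling, as LLC-Chem pool 2 then lay above LLC pool 2 (269.7 against 267.2 with TMM). The log2 fold change was −0.12 (SE 0.11, 95% interval −0.38 to 0.14, adjusted p = 0.426 by limma), so a fall beyond 0.38 on the log2 scale lay outside the interval.

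Its receptor gene Sirpa (chr2:129592835-129632228, plus strand) measured 374.6 and 505.4 RPM across LLC pools, compared with 221.5 and 139.3 RPM across LLC-Chem pools. Both LLC-Chem pools were far below both LLC pools (440.0 ± 92.4 against 180.4 ± 58.1 RPM, SD, n = 2). Sirpa had a log2 fold change of −1.31 (SE 0.26, 95% interval −1.94 to −0.67, adjusted p = 0.0265 by limma), or 41.0% of the LLC level, and it was −0.97 without LLC-Chem pool 2 and −1.64 without LLC-Chem pool 1. The ratio of Sirpa to Cd47 was 1.28 and 1.9 in the LLC pools and 0.889 and 0.527 in the LLC-Chem pools (log2 difference −1.19, exact two-sided permutation p = 0.33, the smallest possible). Sirpa shared no 50-base word of its exons with another gene.

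The promoter of Cd47 is shown as the contrast to those of Cd80, Havcr2 and Lgals9. Its sequence at chr16:49855404-49855632 (plus strand, bases −250 to −22 of the first of its 2 RefSeq starts) carried the hypoxia core in capitals at base −76 on the opposite strand.
Cd47 promoter: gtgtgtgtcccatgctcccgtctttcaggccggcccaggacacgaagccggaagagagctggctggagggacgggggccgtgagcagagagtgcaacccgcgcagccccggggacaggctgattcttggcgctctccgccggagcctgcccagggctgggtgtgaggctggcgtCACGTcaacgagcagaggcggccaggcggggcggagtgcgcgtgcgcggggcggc
The window held 35 CpG dinucleotides and 74.0% G or C, against medians of 7 and 53.0% over all windows. Cd276, which was not called either, held 39. Nt5e held 23 and Cd274 15, so CpG-rich windows occurred among called and uncalled genes.

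Around this pair, 13 genes of the phagocytosis checkpoint were all tested, and 5 were called lower and 0 higher, with a median log2 fold change of −0.90. That median is the value of Siglecg, which reached the limit of the test through the LLC group alone (1.6 and 1.75 against 1.1 and 0.35 RPM) and was not called. The 5 called genes were Tyrobp, an activating adaptor of myeloid receptors (−1.44, adjusted p = 0.0294), Pirb, an inhibitory receptor for MHC class I (−1.31, adjusted p = 0.0296), Ptpn6, the phosphatase SHP-1 recruited by SIRP alpha (−1.28, adjusted p = 0.0299), B2m, the light chain of MHC class I (−1.10, adjusted p = 0.0151), and the inhibitory receptor Lilrb4 (−0.97), all by limma. Thbs1, encoding the CD47 ligand thrombospondin-1, measured 386.5 and 229.5 RPM against 151.0 and 58.8 RPM, and its log2 fold change of −1.65 did not pass (adjusted p = 0.0562 by limma). Calr, encoding the engulfment signal calreticulin, measured 692.2 and 697.0 RPM against 675.2 and 595.4 RPM and was not called.

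CD73 makes adenosine outside the cell. Nt5e, its gene (chr9:88327197-88372092, plus strand), measured 15 and 9.44 RPM across LLC pools, compared with 5.25 and 3.3 RPM across LLC-Chem pools. The groups did not overlap, and 34.9% of the LLC level was left. Nt5e had a log2 fold change of −1.41 (SE 0.31, 95% interval −2.18 to −0.64, adjusted p = 0.0328 by limma), with −1.09 without LLC pool 1, −1.73 without LLC pool 2 and −1.11 without LLC-Chem pool 2.

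Of 14 further genes of adenosine production, sensing and breakdown, 11 were tested, and 5 were called lower and 0 higher, with a median log2 fold change of −0.67. Entpd1 encodes CD39, which supplies AMP to CD73, and it measured 56.5 and 57.3 RPM against 35.4 and 22 RPM (log2 fold change −1.01, adjusted p = 0.0336 by limma). Acpp, an ectophosphatase that also acts on AMP, fell with a log2 fold change of −1.29 (adjusted p = 0.0173 by limma), and Cd38, an ectoenzyme that consumes NAD, with −0.85 (adjusted p = 0.0132 by limma). Ada, the deaminase that removes adenosine, was called lower as well (−0.59, adjusted p = 0.0474 by limma), so enzymes that make adenosine and one that removes it were among the 5. Of the receptors, Adora2a measured 3.7 and 3.45 RPM against 1.85 and 0.85 RPM (−1.19, adjusted p = 0.0484 by limma), whereas Adora2b measured 29.0 and 27.2 RPM against 25.4 and 28.7 RPM with overlapping groups. The ratio of Nt5e to Entpd1 was 0.266 and 0.165 in the LLC pools and 0.148 and 0.15 in the LLC-Chem pools.

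Of 22 other checkpoint or costimulatory ligands, 16 were tested, and 5 were called lower, 1 higher and 10 not called, with a median log2 fold change of −0.50. Cd200, whose product restrains myeloid cells, was among those called lower (−1.83, adjusted p = 0.0234 by limma). The others called lower were Cd48, a ligand of the NK receptor 2B4 (−1.34), Cd40, the costimulatory receptor of antigen-presenting cells (−1.32), H2-T23, the ligand of NKG2A (−0.68), and Clec2d, the ligand of the NK receptor NKR-P1B (−0.52). Pvr, encoding the TIGIT and CD226 ligand CD155, went the other way, with 58.5 and 41.7 RPM against 84 and 84.2 RPM (log2 fold change 0.76, adjusted p = 0.0345 by limma). Of 20 receptors of lymphocytes, 11 were tested, and 3 were called lower and 0 higher. Of those 3, Cd28 and Klrd1, the CD94 chain of NK receptors, reached the limit through the LLC group alone, which fixes their direction. Klrd1 measured 6.2 and 3.0 RPM against 1.3 and 0.4 RPM. The remaining one was Tigit, an inhibitory receptor of T and NK cells (−1.53, adjusted p = 0.0223 by limma). Tigit measured 4.25 and 3.45 RPM against 1.3 and 0.75 RPM, so its LLC-Chem mean of 1.02 RPM only just reached the limit.

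**Figure D3:**
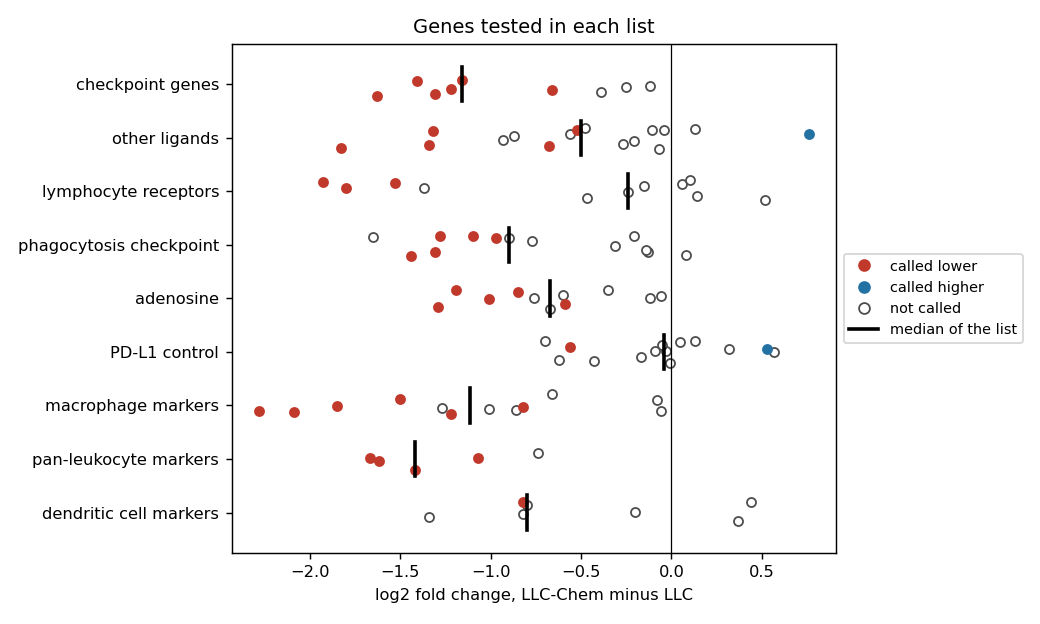
Log2 fold change (LLC-Chem minus LLC) of every tested gene in the checkpoint set, 5 pathway lists and 3 lists of leukocyte markers, with red points called lower, blue points called higher, open points not called and a black bar at the median. The median was −1.16 for the checkpoint genes, −1.12 for macrophage markers, −1.42 for pan-leukocyte markers and −0.04 for the regulators of PD-L1.

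On the scale of RPM per kilobase of exon, which allows genes to be compared, Sirpa led in LLC tumors with a mean of 89.6, followed by Lgals9 (60.2), Cd47 (44.5), Cd276 (41.2) and Cd274 (12.4). Cd86 (4.55), Havcr2 (4.5) and Cd80 (3.96) came next, and Nt5e (1.42) and Pdcd1lg2 (0.726) closed the order. The pools of Cd47 and Cd276 overlapped, as did those of Cd86, Havcr2 and Cd80, while no other neighbors in this order overlapped. In LLC-Chem tumors Cd47 (40.9), Lgals9 (38.1), Sirpa (36.7) and Cd276 (34.5) formed one group in which neighbors overlapped, so Sirpa no longer stood above the rest. Cd274 (4.97), Cd86 (3.53), Cd80 (1.69), Havcr2 (1.47), Nt5e (0.497) and Pdcd1lg2 (0.14) followed, with Cd80 and Havcr2 overlapping.

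Markers of leukocytes were examined beside these genes, and part of them were called lower. Of 5 pan-leukocyte markers 4 were called lower and 0 higher, and their summed level was 782.6 and 883.9 RPM across LLC pools, compared with 471.9 and 285.0 RPM across LLC-Chem pools. Of 12 macrophage markers, all tested, 6 were called lower and 0 higher, with summed levels of 4767.0 and 7698.4 RPM against 3883.9 and 2133.1 RPM. Lyz2 made up a large part of each sum (2596.3 and 5162.2 against 2229.4 and 1029.8 RPM), which was not called. Ptprc, the leukocyte antigen CD45, measured 124.5 and 124.3 against 55.2 and 29.3 RPM (log2 fold change −1.62, adjusted p = 0.0218 by limma), and Csf1r, the receptor for macrophage colony-stimulating factor, had −1.50 (adjusted p = 0.049 by limma). Mrc1 and Mertk, also macrophage markers, had −0.06 and −0.08 and were not called. Of 7 tested dendritic cell markers 1, Flt3, was called lower and 0 higher, with a median log2 fold change of −0.80. In 5 of the 7 both LLC-Chem pools lay below both LLC pools. Over all genes tested 13.5% were called lower and 39.1% had that order, so the 1 call is near the share of all genes. Dendritic cell markers not called included Ccr7 (−1.34), Batf3 (−0.82), Cd209a (−0.80) and Itgax (−0.20). Clec9a (8.15 and 6.2 against 8.3 and 10.5 RPM, log2 fold change 0.37) and Zbtb46 (5.15 and 4.95 against 7.6 and 6.45 RPM, 0.44) lay higher in both LLC-Chem pools, and neither was called.

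Lymphocyte markers were low in every pool. The 7 T cell markers summed to 10.5 and 8.35 RPM across LLC pools, compared with 4.95 and 2.95 RPM across LLC-Chem pools, of which 2 were tested and 0 called by limma, with Cd8a at 0 in LLC-Chem pool 1 and Cd3g at 0 in LLC-Chem pool 2. The 5 NK cell markers summed to 40.8 and 29.6 RPM against 2.9 and 0.85 RPM, and each reached the limit through the LLC group alone, so their calls are not counted. The part of any of these cell types in the checkpoint results was not tested.

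Endothelial and neutrophil markers fell too. All 5 endothelial markers were called lower (198.0 and 137.8 RPM summed, against 46.0 and 24.8 RPM), as were 3 of the 4 neutrophil markers tested (180.7 and 110.4 RPM summed over 5, against 42.5 and 17.3 RPM). Of 6 fibroblast markers 3 were called lower and 1 higher. None of the 3 epithelial markers, the 3 erythroid markers or the 1 keratinocyte marker tested was called by limma, and the 4 muscle markers were all under the limit, with Ckm and Myh4 at 0 in every pool. Of 2 adipocyte markers tested 1 was called higher. Erythroid markers varied widely within a group, at 90.3 and 35.8 RPM summed in the LLC pools against 115.6 and 3.55 RPM.

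Each checkpoint gene was also set against the 12 macrophage markers of the same pool. The mean log2(RPM + 0.5) of these markers was 7.25 and 7.5 in the LLC pools and 6.55 and 5.91 in the LLC-Chem pools, a difference of −1.14. This mean covers markers with unequal changes, from −2.28 (Fcgr1) to −0.06 (Mrc1) in log2 fold change, with C1qa at −0.66 like Lgals9. Relative to the mean Cd274 differed by −0.07, Cd80 by −0.02, Nt5e by −0.27 and Havcr2 by −0.49 between the groups, with overlapping pools for each. The value of Pdcd1lg2 was set by the pseudocount, at −0.72, −0.09 and 0.24 with 0.1, 0.5 and 1 RPM added, and gives no direction. Cd80 likewise lay near 0, at 0.01 with 1 RPM added. Sirpa differed by −0.16 without overlap. Cd47 was higher relative to this mean by 1.02, Cd276 by 0.89, Cd86 by 0.75 and Lgals9 by 0.48, each with both LLC-Chem pools above both LLC pools. Because the mean itself was lower in both LLC-Chem pools, a gene with equal RPM in all pools would have this order too. The share of all genes with it was not computed, so it is not particular to these genes. No p below 0.33 is possible for such a value with 2 pools against 2 in an exact permutation test, and these differences are given as descriptions.

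**Figure D4:**
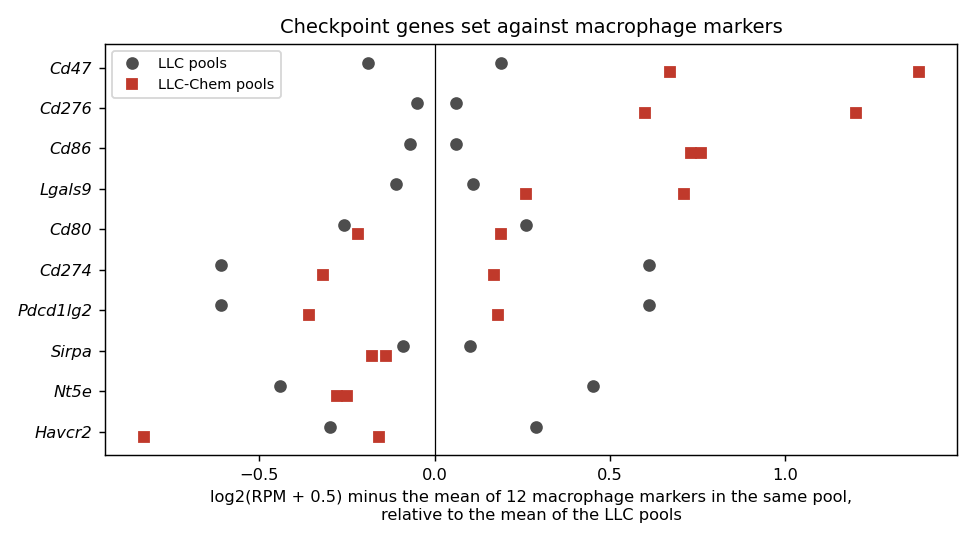
Level of each checkpoint gene relative to macrophage markers, as log2(RPM + 0.5) minus the mean of 12 markers in the same pool, centered on the mean of the LLC pools (0 on the axis). Grey circles are LLC pools and red squares LLC-Chem pools: Cd47, Cd276, Cd86 and Lgals9 have both squares to the right of both circles, while those of Cd80, Cd274, Pdcd1lg2, Nt5e and Havcr2 overlap. A gene with equal RPM in all pools would also have its squares to the right, as the marker mean was lower in LLC-Chem.

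All 6 calls rest on 4 pools. A fit without 1 pool leaves a single pool in a group and takes the spread from the other group alone, so lost calls there say little about single genes. When any 1 pool was left out, limma called 0 of the 9 genes and 0 of the whole table, where 1580 to 2823 genes were lower and 998 to 2359 higher at an unadjusted p under 0.05. The direction of each of the 9 genes was kept under all 16 alternatives. Those that changed only the limit, the variance or the block left the log2 fold change as it was, so they could not alter the direction.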

How the data were processed

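Total RNA of 4 tumor pools, 2 LLC and 2 LLC-Chem, was sequenced. Per the methods, the authors aligned the read pairs with STAR to GRCm38.p4 (mm10), took gene counts by Ensembl annotation with HTSeq, and deposited RPM. The versions of STAR and HTSeq and the strand setting are not given in the sources used here. The deposited RPM are whole steps, from which a rescaling to 20000000 reads with rounding up was inferred; reads and library totals were recovered from these steps (whole within 0.01 of a step). A floor of 3 reads corresponds to 0.088 to 0.105 RPM, and covers counting error only. Between pools of a group chi-square per gene was 75.8 (LLC) and 30.9 (LLC-Chem), so no pool was a copy.

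Differences were tested two-sided with limma 3.58.1 (R 4.3.3; lmFit, eBayes with trend) on log2(RPM + 0.5), for genes whose mean reached 1 RPM, with Benjamini-Hochberg adjustment over all 13694 genes and a threshold of 0.05. The fit had 2 residual degrees of freedom, and was tested on simulated data first. Fold changes are on the log2(RPM + 0.5) scale, which understates changes of low genes. Alternatives were other pseudocounts and limits, TMM or median-of-ratios scaling, eBayes without trend, a replicate block, leaving out each pool, and edgeR 4.0.16 and DESeq2 1.42.0 on recovered reads. The crossed block, the 0.5 RPM limit, the pair ratios and the order of pools under other scalings were added after the data were seen.

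Members, gene lists and tests were chosen with earlier results of these data known. Every member is given with all its values. Named besides were their direct partners, up to 4 called genes per pathway list and direction by size of log2 fold change, and defining markers. Lilrb4, Clec2d, Calr, Ifng, Siglecg, Mrc1, Mertk, Fcgr1, C1qa, Lyz2, Flt3, Ccr7, Batf3, Cd209a, Clec9a, Zbtb46 and markers listed at 0 were named after their values were seen. Gene positions are from GENCODE M21 on GRCm38, which held 98.9% of the identifiers. Promoter windows are from RefSeq on GRCm38.p6. Figures were drawn with matplotlib 3.10.9. One marker list is not reported here.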

Additional observations from a re-analysis of the deposited data

How the results depend on the processing

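None of the 9 tested checkpoint genes changed the direction of its log2 fold change under any alternative. The other limits, eBayes without trend and the blocks could not change it, as they leave the log2 fold change the same. Relative to macrophage markers, Pdcd1lg2 (−0.09) was −0.72 and 0.24 with pseudocounts of 0.1 and 1, and Cd80 (−0.02) was −0.03 and 0.01. Of the 6 checkpoint genes called lower, 4 to 6 were called under the other pseudocounts, the 5 RPM limit, both scalings, eBayes without trend, edgeR and DESeq2. Calls were lost without a filter on low values, where of 26260 genes 0 were called lower and 1 higher by limma (4003 and 3394 at an unadjusted p under 0.05), with 0 checkpoint genes and, of the 84 pathway genes, 0 called lower and 0 higher. Among those 84 the count was 19 lower and 2 higher in the reported fit, and 12 and 0 with eBayes without trend. The 19 include Cd28 and Klrd1, which reached the limit through the LLC group alone, which fixes their direction. The cause of the lost calls was not tested. Leaving out each pool in turn gave 0 to 0 genes called in each direction by limma, over all genes (1580 to 2823 lower and 998 to 2359 higher at an unadjusted p under 0.05), checkpoint genes (0) and pathway genes (0), in fits with fewer samples.

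The labels do not pair pools with equal replicate numbers. The correlation of the deviations of such pools from their group means was −0.1405, which cannot show whether they were made together. With the replicate block, 1064 genes were called lower and 549 higher, against 1848 and 1306 without it, with 12 pathway genes lower and 0 higher. The block left 5 checkpoint genes called, without Sirpa (adjusted p = 0.0514 by limma). With the crossed block, 2320 genes were called lower, 1579 higher and 6 checkpoint genes lower.

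With 2 pools a group, the spread between pools limits the 9 tested genes, whereas for Pdcd1lg2, with 8 to 63 reads a pool, counting limits the value as well.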

Other observations

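In all, 3 relatives of Sirpa were named after their values were seen. Sirpb1a, Sirpb1b and Sirpb1c encode activating relatives of SIRP alpha. Sirpb1c measured 20.9 and 17.9 RPM across LLC pools, compared with 1.95 and 0.85 RPM across LLC-Chem pools (log2 fold change −3.45, adjusted p = 0.0093 by limma). Sirpb1a measured 6.6 and 5.15 against 0.85 and 0.45 RPM, and Sirpb1b 6.2 and 4.15 against 0.7 and 0.45 RPM. Both reached the limit of the test through the LLC group alone, so no test is given for them. The 3 genes resemble each other in sequence, so their values are uncertain.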
